A study of Mus musculus with 5 samples.

Results

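The expression of 10 genes of lipid handling and of the Pparg program was described in single cells of mouse lung: the nuclear receptor gene Pparg, the uptake and lipolysis genes Cd36 and Lpl, the fatty acid binding genes Fabp4 and Fabp5, the droplet genes Plin2 and Cidec, and the cholesterol export genes Abca1, Abcg1 and Apoe. They were taken by exact symbol, and all 10 were among the 42454 genes of each count table. Cells were captured with the 10x Genomics Chromium system, which counts each captured RNA molecule once by a molecular identifier (UMI), in 5 libraries of C57BL/6J mice. Newborn mice under 12 h of age were kept with their dams in room air or in hyperoxia (>95% O2) for 3 days, the dams were switched every 24 h, and the pups then stayed in room air until postnatal day (pnd) 7 or pnd60. There was 1 library each of unsorted lung cells from air pnd7, hyperoxia pnd7, air pnd60 and hyperoxia pnd60 mice. The fifth library held hyperoxia pnd7 cells that were pooled from 3 lungs and sorted by flow cytometry for C12FDG, a substrate that turns fluorescent when cleaved by β-galactosidase, the activity used to mark senescent cells. The number of mice behind each unsorted library is not given in the sources used here, and these libraries came from an earlier dataset of the same laboratory. With 1 library per condition no test between conditions was possible: all intervals below are exact 95% intervals for counting error only, and a difference between libraries can equally be one between mice, between preparations or, for the sorted library, between sorted and unsorted suspensions.

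Alveolar macrophages live on the air side of the alveolus and clear surfactant, a film of phospholipid, cholesterol and protein made by type II cells. PPARγ, the protein of Pparg, is a lipid-activated transcription factor that is induced in fetal lung macrophages by GM-CSF and is needed for their maturation. With the retinoid X receptor it drives genes for fatty acid uptake, droplet storage and, through liver X receptors (LXR), cholesterol export. Mice and people without GM-CSF signalling accumulate surfactant in foamy macrophages. Interstitial macrophages lie within the tissue and carry C1q complement and high Apoe.

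Of the 10 genes, Abca1 had a match to the textbook DR4 form of the LXR element before its start site, so this stretch is shown. It lies on the minus strand of mm10 at chr4:53159941-53159969, and the capitals mark the match (53159948 to 53159962), with 52 bases between its near end and the start site at position 53159895. In the annotation the stretch still falls inside the Abca1 gene record, which ends at 53159988.
Abca1: cagcgttTGACCGGTAGTAACCccggcgc
The letters searched on both strands were GGTNA, any 5 bases and GGTNA again, which 0.621% of all 32851 windows of 250 bases before a RefSeq start site held. The DR1 letters used for PPARγ with its partner, AGGNCA, any 1 base and AGGNCA again, were in 0.338% of windows and in 0 of the 11 windows of the 6 members that had one in the table. These matches describe letters in a window and say nothing of binding.

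After the study's filter (700 to 8000 genes and under 5% mitochondrial counts per cell) 13200 of 18236 barcodes were kept, from 493 in the sorted library to 4756 in hyperoxia pnd60, with a median of 2168 to 15529 counts per cell. Libraries shared 0 to 4 cell barcodes pairwise. Cells were clustered without the 10 genes and without 61 further lipid genes, and clusters were named from marker lists. A total of 1140 cells were macrophage-like, 930 of them alveolar and 210 interstitial, and 1100 of the 1140 were also classed as macrophages when each cell was read by itself. They made up 4.46% (3.66% to 5.39%) of air pnd7 cells, 5.94% of hyperoxia pnd7, 5.75% of air pnd60 and 5.26% of hyperoxia pnd60 cells, and 93.3% (90.7% to 95.3%) of the sorted library. In sum they held 8.64% of cells and 19.4% of all counts. Levels are given as CPM, the counts of a gene scaled to a fixed total of all counts in the same cells.

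The alveolar macrophage-like cells came from 3 clusters, and which cluster held them differed by library. Most unsorted ones lay in cluster 6 (65, 39, 168 and 183 cells in air pnd7, hyperoxia pnd7, air pnd60 and hyperoxia pnd60), led by Chil3, Krt79, Ear1 and Ear2. Of the 412 sorted ones, 367 lay in cluster 9, led by the stress genes Hmox1, Slc7a11, Mt1, Mt2 and Gdf15 and by Mmp12, with 9 of 12 alveolar markers raised. Cluster 35 held cycling cells (Top2a, Mki67) of all 5 libraries, from 11 to 45 each. All 12 alveolar markers were detected in alveolar macrophage-like cells of every library, with a sum of 4717 CPM in the sorted library, 5639 and 6899 CPM in air and hyperoxia at pnd7, and 15544 and 19264 CPM at pnd60. Interstitial macrophage-like cells formed cluster 22, led by C1qa, C1qb and C1qc, with 22, 19, 48, 65 and 56 cells in air pnd7, hyperoxia pnd7, sorted, air pnd60 and hyperoxia pnd60. The marker Pf4 was at 0 there in all 5 libraries.

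For 6 of the 10 genes the class with the highest level, of 21 classes with at least 50 cells, was macrophage-like. The share of all genes with their highest level in these classes is not given here, so the count describes the 10 genes only. Alveolar macrophage-like cells led for Lpl, at 2802 CPM (2771 to 2832) against 620 CPM in mesothelium, the next class, and held 85.7% of all its counts. The same cells led for Abcg1 (1139 CPM against 188 CPM in mesothelium), for Cidec (161 CPM against 17.5 CPM in mesothelium) and for Plin2 (910 CPM against 279 CPM in interstitial macrophages). Cidec was close to exclusive to the class, which held 95.4% of its counts. Interstitial macrophage-like cells led for Apoe, at 17597 CPM (17398 to 17797) against 1965 CPM in nonclassical monocytes, and for Abca1, at 360 CPM (332 to 390) against 117 CPM in B cells. The mesothelium-like class was nearly all from 1 library (189 of its 209 cells were air pnd7). Its cluster also had 8 of 10 type I and 6 of 8 erythroid markers raised, at a median depth of 0.525 of that of its libraries. The class held 26, 46 or 43 cells by Seurat integration, at Leiden resolution 1 or by each cell's own markers. It held 241 with the lipid genes left in the clustering, so it is an uncertain comparator.

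Pparg itself was found in alveolar macrophages and in nonclassical monocytes, the patrolling monocytes of the capillary bed. Pooled over the 5 libraries its level was 104 CPM in both, with intervals of 98.1 to 110 CPM and 88.6 to 122 CPM, and it was 19.97 CPM in interstitial macrophages, the next class. By library, nonclassical monocytes had 122 CPM (84.3 to 170) in air pnd7, 127 CPM in hyperoxia pnd7, 81.1 CPM in air pnd60 and 88.1 CPM (65.4 to 116) in hyperoxia pnd60, all overlapping. The pooled values weigh the libraries differently, since 412 of the 930 alveolar cells but 7 of the 451 monocytes came from the sorted library. At pnd60 alveolar macrophages were above these monocytes without overlap, at 160 CPM in air (140 to 181) and in hyperoxia (141 to 181), while at pnd7 the intervals of both classes overlapped. When any 1 of the 3 pnd7 libraries was left out, or cells were weighted equally, alveolar macrophages came first.

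The fatty acid binding genes and Cd36 had their highest pooled level outside macrophages. Fabp4, known from adipocytes and capillary endothelium, was highest over the pooled libraries in large vessel endothelium (299 CPM, 266 to 334), ahead of nonclassical monocytes (197 CPM) and alveolar macrophages (97.6 CPM). In the 27 large vessel cells of hyperoxia pnd7 it reached 598 CPM, but 53 of its 140 counts came from 1 cell, and at pnd60 it was 107 and 88.4 CPM in air and hyperoxia. Large vessel endothelium was not first at pnd60, where nonclassical monocytes (258 and 296 CPM) and alveolar macrophages (193 and 147 CPM) were both above it. Fabp5 was highest in type II cells at 1562 CPM (1539 to 1586), followed by alveolar macrophages at 1070 CPM. Cd36, the receptor for long-chain fatty acids and oxidised lipoproteins, was highest in capillary endothelium, at 2299 CPM in the Car4 class (2204 to 2397) and 1883 CPM in the general class (1842 to 1925) over the pooled libraries. The order of these classes differed between libraries. In hyperoxia pnd7 the Car4 class had 1170 CPM in 23 cells and the general class 448 CPM, while air pnd7 had only 14 Car4 cells. At pnd60 the Car4 class had 2767 and 2509 CPM in air and hyperoxia and the general class 2999 and 3157 CPM, overlapping in air. Age, cell state and library cannot be told apart in this order.

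**Figure D1:**
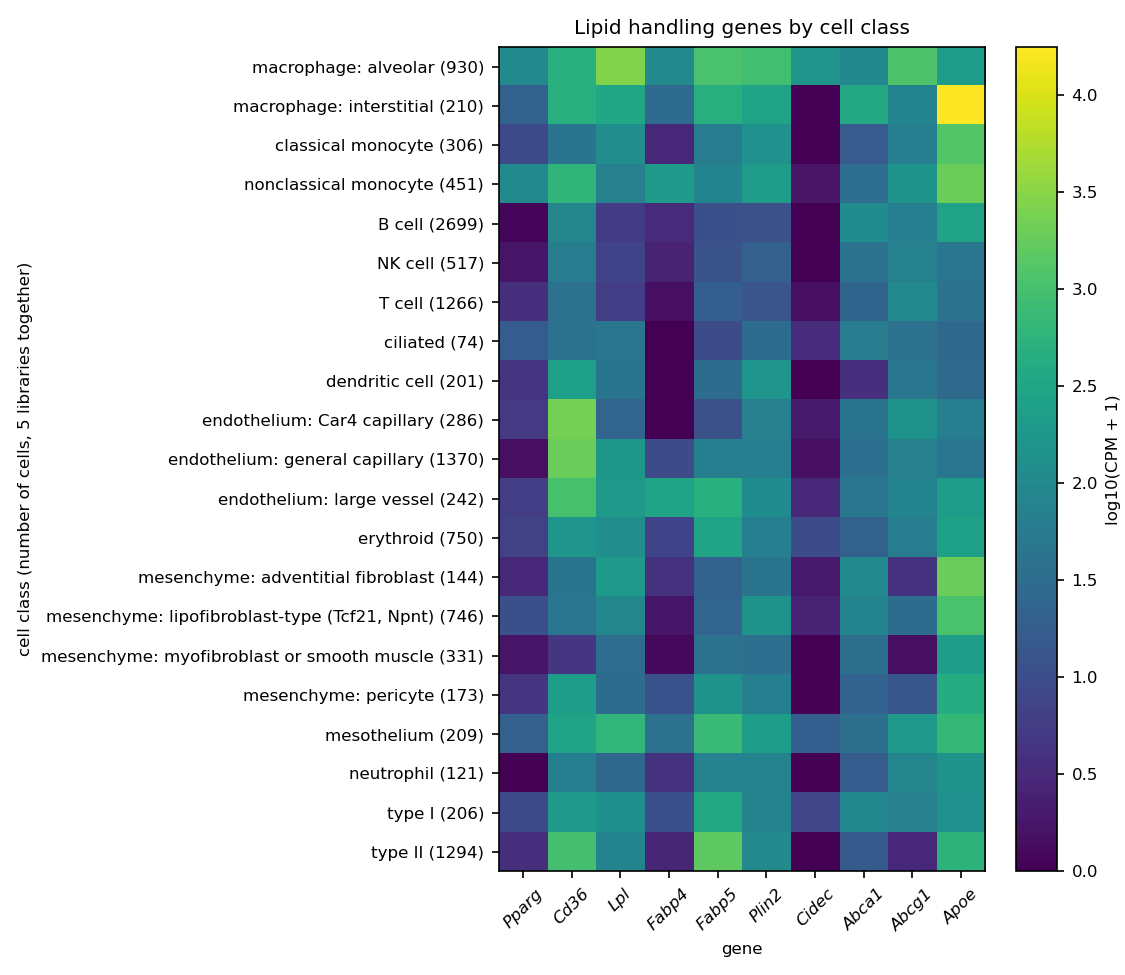
Heat map of the level of each gene (columns) in each cell class (rows, with the number of cells over the 5 libraries), as log10(CPM + 1). Lpl, Abcg1, Cidec and Plin2 are brightest in alveolar macrophages, Apoe and Abca1 in interstitial macrophages, and Cd36 in capillary endothelium.

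Within the macrophage-like cells, the level in each library is given below in the order air pnd7, hyperoxia pnd7, C12FDG-sorted hyperoxia pnd7, air pnd60 and hyperoxia pnd60. Coordinates are those of RefSeq on mm10, and all 10 genes are protein coding.

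Pparg (chr6:115360879-115490404) stood at 128, 152, 66.8, 160 and 160 CPM in alveolar macrophage-like cells. The sorted library was lowest, with an interval of 60.7 to 73.3 CPM, and the 4 unsorted libraries overlapped one another, from 108 to 181 CPM. The interstitial macrophage-like cells had 1, 3, 28, 1 and 1 counts of it in all, so the unsorted libraries were near the limit of detection there. The 28 counts of the sorted library came from 18 of its 48 interstitial cells, at 37.3 CPM (24.8 to 53.9).

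Cd36 (chr5:17781690-17888959) was at 498, 496, 574, 366 and 351 CPM in alveolar macrophage-like cells, higher in the 3 pnd7 libraries than in both pnd60 libraries, without overlap of the intervals. The interstitial cells had 351, 309, 598, 389 and 391 CPM, where only the sorted library stood apart.

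Lpl encodes lipoprotein lipase, which frees fatty acids from triglyceride-rich lipoproteins (chr8:68880555-68906932). Its level in alveolar macrophage-like cells was 2845, 3568, 1867, 4029 and 5038 CPM, with 1834 to 1900 CPM in the sorted library and 4929 to 5149 CPM in hyperoxia pnd60. No 2 of the 5 intervals overlapped, each pnd60 library was above every pnd7 library, and hyperoxia was above air at both ages. The interstitial level was 462, 246, 234, 355 and 702 CPM, with hyperoxia below air at pnd7 and above it at pnd60. Single cells weigh on the pnd7 values, since 40 of 116 counts in air and 72 of 176 in the sorted library came from 1 cell each.

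Fabp4 (chr3:10204342-10208616) had 92.0, 57.3, 70.1, 193 and 147 CPM in alveolar macrophage-like cells, higher in both pnd60 libraries than in the 3 pnd7 libraries. The value in hyperoxia pnd7 rested on 50 counts in 9 of 55 cells, of which 31 were in 1 cell. In interstitial macrophage-like cells it was at 0 counts in 3 libraries, and all 28 counts in air pnd7 came from 1 cell. Fabp5 (chr3:10012585-10016610) ran the other way by age, with 1068, 1054, 1274, 640.0 and 648 CPM in alveolar macrophage-like cells. Its interstitial level was 343, 138, 858, 59.8 and 21.9 CPM, highest in the sorted library, and 156 of the 644 sorted counts came from 1 cell.

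Plin2 coats lipid droplets in most cell types (chr4:86626910-86670217). It was the steadiest of the 10 in alveolar macrophage-like cells, at 975, 877, 873, 969 and 977 CPM, so the libraries spanned 873 to 977 CPM. In interstitial macrophage-like cells it had 215, 368, 328, 227 and 149 CPM. Cidec joins small droplets into large ones and is a classic PPARγ target of fat cells (chr6:113424634-113435760). It was at 166, 112, 27.7, 484 and 428 CPM in alveolar macrophage-like cells, lowest in the sorted library (23.8 to 32.0) and highest in both pnd60 libraries. Not 1 count of Cidec was found in interstitial macrophage-like cells of any library, with upper limits from 4.91 CPM in the sorted library to 16.2 CPM in hyperoxia pnd60.

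Abca1 and Abcg1 are the LXR-driven transporters that load cholesterol onto lipid-poor apolipoprotein and onto mature high-density lipoprotein, respectively. Abca1 (chr4:53030789-53159988) had 97.2, 149, 53.2, 147 and 180 CPM in alveolar macrophage-like cells and 295, 376, 332, 402 and 465 CPM in interstitial ones. The sorted library was lowest among the alveolar cells (47.8 to 59.1) but in the middle among the interstitial cells (292 to 375). Abcg1 (chr17:31057694-31117984) had 1328, 1685, 519, 2201 and 2252 CPM in alveolar macrophage-like cells, again lowest in the sorted library (502 to 537). In interstitial cells it had 43.9, 54.3, 97.2, 103 and 74.6 CPM, on 11 to 73 counts per library.

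Apoe, the apolipoprotein that carries exported cholesterol (chr7:19696244-19701310), was the marker of the interstitial side, with 18726, 14220, 18943, 16505 and 16585 CPM there. Alveolar macrophage-like cells had 293, 179, 255, 147 and 106 CPM. Every interstitial cell of the 3 pnd7 libraries had a count at 1000 UMIs per cell, against 12.3%, 16.4% and 19.7% of the alveolar cells of air pnd7, hyperoxia pnd7 and the sorted library.

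**Figure D2:**
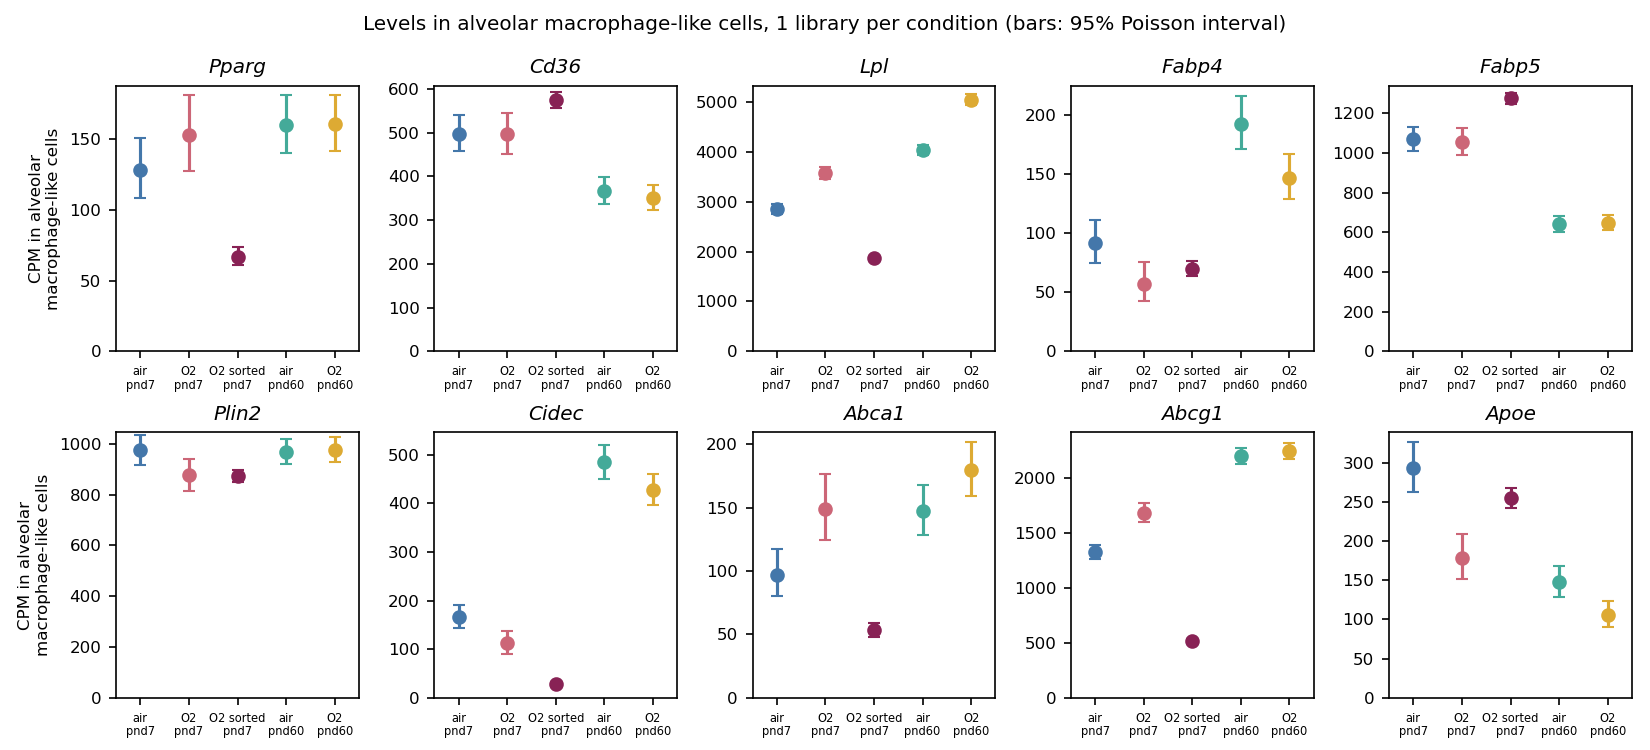
Level in CPM (y axis, from 0) of each gene in alveolar macrophage-like cells of the 5 libraries (x axis; O2 is hyperoxia), with points for the library value and bars for the 95% Poisson interval. The sorted library is lowest for Pparg, Lpl, Cidec, Abca1 and Abcg1 and highest for Cd36 and Fabp5, and Plin2 stays between 873 and 977 CPM.

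The first comparison asked whether hyperoxia left a difference in these genes at pnd7, after the return to room air. In macrophage-like cells Abca1 was higher after hyperoxia, with a log2 ratio of 0.57 (0.29 to 0.86), as were Abcg1 at 0.28 (0.18 to 0.39) and Lpl at 0.24 (0.17 to 0.31). Cidec was lower at -0.63 (-0.998 to -0.27) and Fabp4 at -1.09 (-1.59 to -0.61). Pparg at 0.21 (-0.14 to 0.56), Cd36 at -0.05 (-0.22 to 0.12) and Plin2 at -0.13 (-0.26 to 0.00) had intervals that included 0 or ended there. In other settings of the whole class the Plin2 ratio ran from -0.46 to -0.003 and the Abcg1 ratio from -0.021 to 0.305. Fabp4 was the 1 gene of 10 that was at least 2-fold lower, and 0 were at least 2-fold higher, beside 0.733% lower and 0.435% higher of all 4367 genes with at least 100 counts. With the highest cell of each library left out its ratio was -2.08. It fell short of 2-fold when cells were weighted equally (-0.81) and in alveolar cells alone (-0.68, -1.20 to -0.18). The median of the 10 was -0.09, against 0.00 for all genes. In the alveolar cells, 0 of 10 passed 2-fold either way, beside 0.63% of 3653 genes.

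At pnd60 the ratios were smaller in size than at pnd7 for every gene but Lpl and Cd36. Lpl was at 0.35 (0.30 to 0.39), which is 4500 CPM after hyperoxia against 3539 CPM in air. Abca1 was at 0.25 (0.03 to 0.47), Cidec at -0.16 (-0.32 to -0.01) and Fabp4 at -0.38 (-0.63 to -0.12). Pparg stood at 0.02 (-0.24 to 0.28), Plin2 at 0.01 and Fabp5 at 0.02 (-0.11 to 0.15). None of the 10 was 2-fold apart, beside 0.533% of 5814 genes, and the median was 0.01. Lpl and Abca1 were above air, and Cidec and Fabp4 below air, at both ages. The share of all genes that kept their sign at both ages is not given here. For Lpl, 313 of the 3115 counts in alveolar cells of hyperoxia pnd7 came from 1 cell. For Lpl at pnd7 the direction did not hold after thinning each cell to 1000 UMIs, with a ratio of -0.086.

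The sorted library was compared with unsorted hyperoxia pnd7 cells. Over whole libraries, 9 of the 10 genes were at least 2-fold higher in the sorted one, beside 8.17% of 11340 genes, with log2 ratios of 2.45 for Lpl, 2.45 for Plin2 and 1.92 for Pparg, and 0.95 for Abca1. The median was 1.73 against -0.55 for all genes. The sorted library was 93.3% macrophage-like and the unsorted one 5.94%.

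Within macrophage-like cells the signs of most of these ratios turned. Cidec was at -1.83 (-2.19 to -1.46), Abcg1 at -1.49 (-1.57 to -1.40), Abca1 at -1.28 (-1.503 to -1.05), Pparg at -0.94 (-1.22 to -0.65), Lpl at -0.75 (-0.80 to -0.69) and Apoe at -0.57 (-0.62 to -0.51). Plin2 was at 0.09 (-0.01 to 0.20), while Cd36 at 0.34, Fabp5 at 0.52 and Fabp4 at 0.55 (0.13 to 1.004) were higher. Of the 10, 3 were at least 2-fold lower, beside 14.2% of all 7034 genes, and 0 at least 2-fold higher, beside 4.01%. The ratio of Fabp4 was 1.27 after thinning to 1000 UMIs and 1.80 without the highest cell of each library, since 31 of the 50 unsorted counts came from 1 cell. The median was -0.66 against -0.28 for all genes. Against that lower centre, Cidec and Abcg1 were still past 2-fold and Abca1 stood at -0.993.

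In alveolar macrophage-like cells alone, where the share of interstitial cells cannot enter, 4 of 10 were at least 2-fold lower, beside 13.8% of 6624 genes: Cidec at -2.02 (-2.38 to -1.65), Abcg1 at -1.70 (-1.79 to -1.61), Abca1 at -1.49 (-1.78 to -1.18) and Pparg at -1.19 (-1.47 to -0.90). The median of all genes there was -0.29, and against that centre Pparg was no longer past 2-fold. Lpl was at -0.93 (-0.99 to -0.88). Plin2 at -0.01 (-0.12 to 0.10) did not move with them, and Apoe turned to 0.51 (0.27 to 0.76). In the cycling cluster 35, where the sorted library had 45 cells and the unsorted one 15, Abcg1 was at -1.56 (-1.76 to -1.36), Pparg at -1.59 (-2.15 to -1.03) and Lpl at -0.70 (-0.83 to -0.57), while Plin2 was at 0.53 (0.26 to 0.81). The interstitial macrophage-like cells had other values: Abca1 was at -0.18 (-0.53 to 0.18), Lpl at -0.07 (-0.51 to 0.38), Cd36 at 0.95 (0.59 to 1.33) and Fabp5 at 2.64 (2.13 to 3.19). Fabp5 was the 1 member with at least 100 counts that was at least 2-fold higher there, beside 19.8% of 1586 genes. Pparg, Abcg1, Cidec and Fabp4 had fewer counts and were not compared. Pparg had 37.3 CPM on 28 counts in the sorted cells against 12.5 CPM on 3 counts. Whether the alveolar and interstitial ratios differ was not tested. The alveolar cells of the sorted library lay nearly all in a cluster of their own, so cell state, sort and library cannot be told apart in these ratios.

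**Figure D3:**
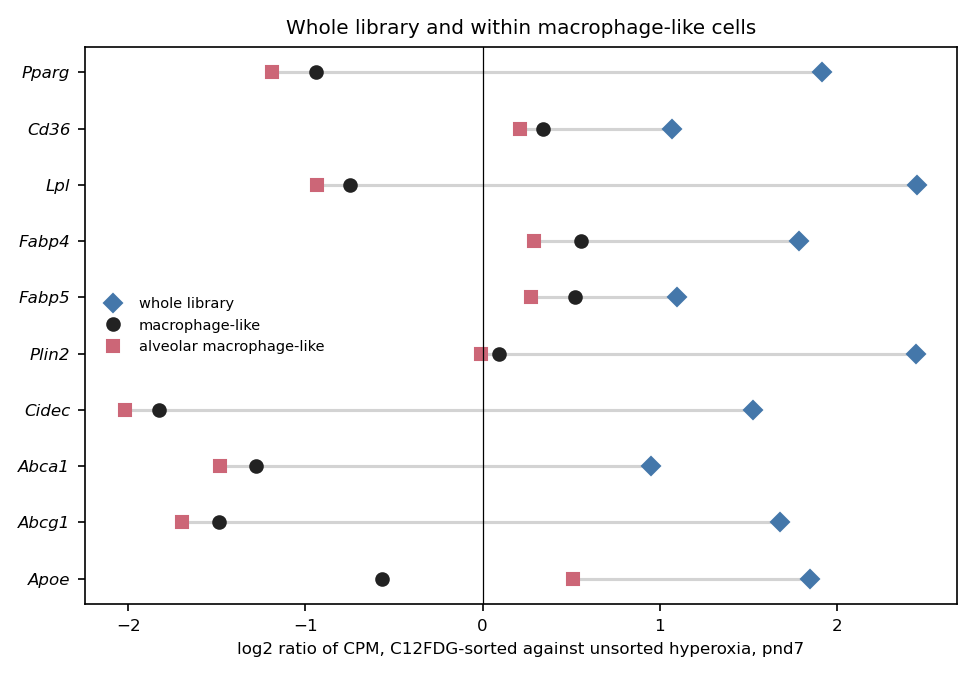
Log2 ratio of CPM of the C12FDG-sorted against the unsorted hyperoxia library at pnd7 (x axis) for each gene (y axis), over the whole library, over macrophage-like cells and over alveolar macrophage-like cells. All 10 whole-library ratios lie above 0, from 0.95 to 2.45, while within macrophage-like cells 6 of 10 lie below 0.

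Against the air pnd7 library, with which the sorted library shares age but not exposure, the ratios within macrophage-like cells were -2.46 for Cidec (-2.76 to -2.16), -1.20 for Abcg1 (-1.29 to -1.12), -0.73 for Pparg, -0.70 for Abca1 and -0.51 for Lpl, with 0.39 for Fabp5 and 0.29 for Cd36. Of the 10, 2 were at least 2-fold lower, beside 14.6% of 7157 genes. The median of all genes was -0.32, and against that centre Abcg1 was no longer past 2-fold. Both comparisons use the same sorted library.

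The fourth comparison followed the genes with age in air, from pnd7 to pnd60. Cidec had the largest ratio, 1.62 (1.39 to 1.86), and was the 1 of 10 at least 2-fold higher, beside 4.81% of 5339 genes, with 0 at least 2-fold lower, beside 2.96%. Abcg1 at 0.81 (0.72 to 0.90), Fabp4 at 0.81 (0.50 to 1.11), Lpl at 0.55 (0.49 to 0.61), Abca1 at 0.45 (0.18 to 0.72) and Pparg at 0.40 (0.10 to 0.70) were higher at pnd60. Fabp5 at -0.74 (-0.86 to -0.62), Apoe at -0.64 (-0.70 to -0.58) and Cd36 at -0.35 (-0.51 to -0.19) were lower, and Plin2 was at 0.05 (-0.06 to 0.17). The median was 0.42 against 0.12 for all genes. In alveolar cells alone Cidec was at 1.54 (1.31 to 1.78) and Fabp4 at 1.07 (0.74 to 1.40), so 2 of 10 passed 2-fold, beside 4.48% of 4691 genes, and Apoe was at -0.995 (-1.25 to -0.75). Between the hyperoxia libraries of the same ages, Cidec was at 2.09 (1.78 to 2.41), Fabp4 at 1.52 (1.07 to 1.99), Lpl at 0.66 and Fabp5 at -0.59, and 2 of 10 passed 2-fold, beside 5.46% of 5077 genes.

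**Figure D4:**
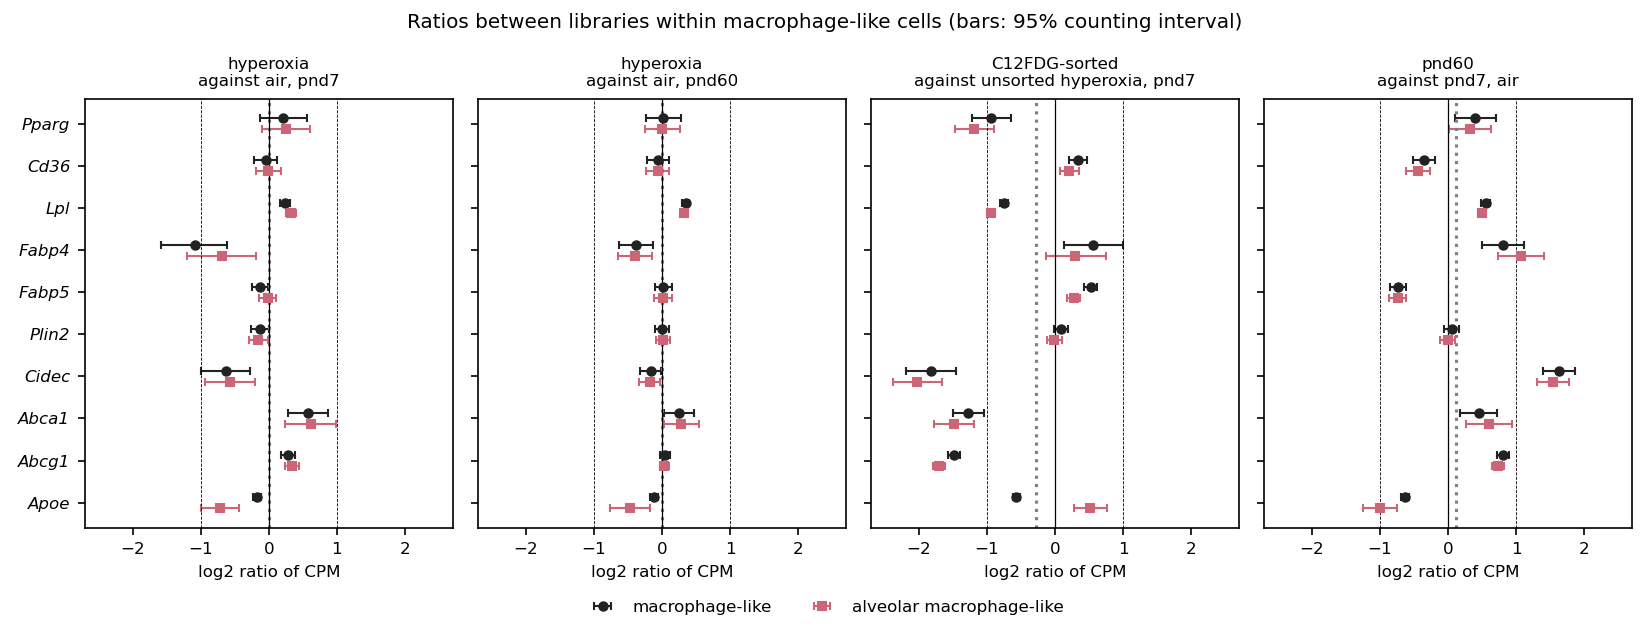
Log2 ratio of CPM (x axis) of each gene (y axis) in the 4 comparisons, for all macrophage-like cells and for the alveolar ones, with bars for the 95% counting interval. The sorted comparison spans -2.02 to 0.55 and the age comparison reaches 1.62 for Cidec, while the ratios of hyperoxia against air at pnd60 stay between -0.47 and 0.35.

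Outside macrophages, Cd36, Plin2 and Fabp4 also differed with age, in classes whose cells lay in separate clusters at each age. The general capillary class was cluster 16 at pnd7 (121 air and 132 hyperoxia cells) and cluster 1 at pnd60 (555 and 561). Type II cells were nearly all in cluster 13 at pnd7 (171 and 136) and in clusters 2 and 33 at pnd60, and most nonclassical monocytes were in cluster 37 at pnd7 (54 and 41) and cluster 12 at pnd60 (147 and 194). Age, cell state and library cannot be told apart in these values. In general capillary endothelium Cd36 was 734 CPM in air pnd7, 448 CPM in hyperoxia pnd7, 2999 CPM in air pnd60 and 3157 CPM in hyperoxia pnd60, a log2 ratio with age in air of 2.03 (1.91 to 2.15), beside 15% of 4264 genes at least 2-fold higher. Hyperoxia against air at pnd7 gave -0.71 (-0.88 to -0.54) there and 0.07 (0.00 to 0.14) at pnd60. In type II cells Cd36 went from 666 CPM in air pnd7 to 1314 CPM in air pnd60, a ratio of 0.98 (0.90 to 1.06), whereas in alveolar macrophages it went from 498 to 366 CPM. Plin2 in type II cells was 65.0 CPM in air pnd7, 60.6 CPM in hyperoxia pnd7, 141 CPM in air pnd60 and 112 CPM in hyperoxia pnd60, with a ratio with age in air of 1.12 (0.85 to 1.39), beside 9.79% of 6519 genes. Fabp5 in the same cells was near level, at 1465, 1667, 1481 and 1611 CPM. Nonclassical monocytes had more Fabp4 at pnd60, with 258 CPM in air and 296 CPM in hyperoxia, than at pnd7, with 42.9 and 61.4 CPM, and more Apoe (2520 and 2449 CPM against 941 and 856 CPM).

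Depth per cell differed between libraries, so the share of alveolar macrophage-like cells with a count was also read after thinning each cell to 1000 UMIs, which kept all 930 cells. The shares are given in the same order of libraries. Abcg1 was found in 67.9%, 67.3%, 36.4% (31.8% to 41.3%), 85.6% and 87.6% of cells. Cidec was found in 22.2%, 9.09%, 3.40% (1.87% to 5.64%), 39.9% and 33.5%. For Lpl the shares were 91.4%, 94.5%, 72.1%, 90.4% and 95.9%, and for Pparg 13.6%, 20%, 6.55%, 13.8% and 13.4%. The sorted library was lowest for these genes, but not always without overlap. For Cidec it overlapped hyperoxia pnd7 (3.02% to 19.95%). For Pparg (4.36% to 9.39%) it overlapped every unsorted library except hyperoxia pnd7 (10.4% to 33.0%). For Plin2 (52.9%) it lay between hyperoxia pnd7 (41.8%) and air pnd7 (69.1%), which did not overlap each other. For Fabp5 (57.5%) it was highest, though overlapping air pnd7. Without thinning, Cidec had a count in 75.3%, 65.5%, 29.9%, 92.0% and 88.1% of the cells. In T cells, which should lack Pparg, Lpl, Cidec and Plin2, the thinned shares were at most 0.526%, 0.769%, 0.2% and 5%, respectively. Abcg1 was found in 6.15% to 11.4% of T cells. Median depths were 2270.5 to 6335 counts in T cells against 7575 to 16079 in alveolar macrophages. These low shares do not hold for every member. By unsorted library and without thinning, T cells had 17.6 to 50.8 CPM of Apoe and 2.51 to 58.9 CPM of Cd36. They had 1.35 to 33.9 CPM of Abca1 and 10.2 to 35.1 CPM of Fabp5, but at most 1.36 CPM of Fabp4. Whether these counts are background was not tested.

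**Figure D5:**
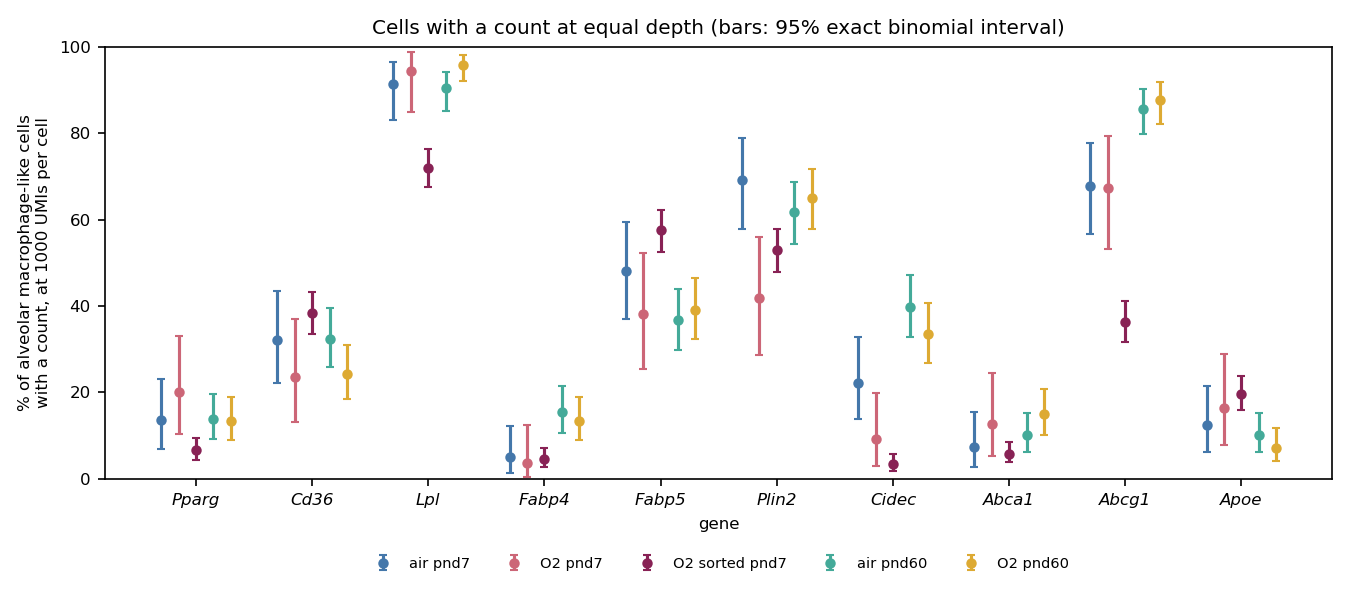
Share of alveolar macrophage-like cells with at least 1 count of each gene (y axis, percent) after thinning every cell to 1000 UMIs, for the 5 libraries (colours), with exact 95% binomial intervals. For Abcg1 the sorted library is at 36.4% and the other 4 are at 67.3% to 87.6%, and for Cidec it is at 3.40% against 9.09% to 39.9%.

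RNA of other cell types was also measured in the alveolar macrophage-like cells. The 10 type II markers summed to 6488 and 259 CPM in air and hyperoxia at pnd7, 461 CPM in the sorted library, and 4934 and 2076 CPM in air and hyperoxia at pnd60, with Sftpb at 0 in 4 of the 5, against 181559 to 249939 CPM in type II cells. The 8 erythroid markers summed to 14.5 CPM in the sorted library and to 1436 to 4700 CPM in the unsorted ones. In interstitial macrophage-like cells the type II sum was 8883 CPM in air pnd7 and 8480 CPM in the sorted library, against 251 to 430 CPM in the other 3, and the erythroid sum was 63006 CPM in hyperoxia pnd7. Fabp5, Cd36 and Apoe are abundant in type II cells too; the part of these RNAs in the ratios was not tested. In type II cells of the 4 unsorted libraries Lpl was at 31.4 to 116 CPM, Abcg1 at 0 to 3.49 CPM and Pparg at 0.897 to 3.67 CPM, and Cidec had 0 counts in each, with upper limits of 1.13 to 1.66 CPM.

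Of 61 further lipid genes in 6 lists, 37 had at least 100 counts in macrophage-like cells of the sorted and unsorted hyperoxia libraries, and 3 were at least 2-fold higher, beside 4.01% of all 7034 genes, and 6 at least 2-fold lower, beside 14.2%, in the sorted cells. Among the higher ones were the droplet gene Hilpda, which inhibits triglyceride lipase, at 1.62 (0.92 to 2.42) and the fatty acid binding gene Fabp1 at 1.27 (0.85 to 1.73). Lower were the fatty acid transporter Slc27a1 at -1.61 (-1.98 to -1.23), the mitochondrial carnitine transferases Cpt1a at -1.37 (-1.61 to -1.13) and Cpt2 at -1.14, the scavenger receptor Msr1 at -1.14, the monoglyceride lipase Mgll at -1.11 and the LXR target Mylip at -1.10. Cpt2, Msr1, Mgll and Mylip were no longer 2-fold lower once centred on the median of all genes. The median of the 37 was -0.28, that of all genes. The droplet list had a median of 0.31 over 5 genes, the uptake list -0.71 over 7, and the efflux list -0.46 over 6.

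With age in air, 3 of 36 such genes were at least 2-fold higher, beside 4.81% of 5339 genes: Fabp1 at 1.82 (1.54 to 2.12), the LXR gene Nr1h3 at 1.21 (0.64 to 1.81) and the triglyceride-making enzyme Dgat1 at 1.15 (0.59 to 1.75). Apoc1, a small apolipoprotein encoded beside Apoe, at -2.08 (-2.56 to -1.62) and Msr1 at -1.82 (-2.30 to -1.35) were at least 2-fold lower, beside 2.96%, though Msr1 was at -0.81 as mean CPM per cell. Receptors and regulators had a median of 0.70 over 7 genes. Hyperoxia against air left 0 higher and 2 lower of 29 at pnd7 (Fabp1 at -1.06 and Apoc1 at -1.03), beside 0.435% and 0.733% of 4367 genes, and 0 of 37 in either direction at pnd60, beside 0.533% of 5814.

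The genes most like each member were sought over 61 units, each a class in 1 library with at least 30 cells, by Pearson correlation of log2(CPM + 1), which describes these units and shares their libraries. For Pparg these were Ear2 (0.81), F10 (0.81), Rnh1 (0.78), Bcl2a1a (0.78) and Lilra5 (0.77), and the nearest other member was Plin2 (0.73). Lpl and Plin2 were each other's nearest gene (0.86), followed by Idh1 for both (0.80 and 0.86). Cidec was nearest to Acaa1b (0.93), Ear1 (0.93) and Fabp1 (0.92), Abcg1 to Cd274 (0.80), Apoe to Arhgef10l (0.74), Cd36 to Smagp (0.78), Fabp5 to Atp6v1g1 (0.81), Fabp4 to Ear2 (0.68) and Abca1 to Rasgef1b (0.70).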

How the data were processed

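The data were 5 single-cell libraries, 1 per condition, so no test between conditions was made. The authors made the deposited UMI counts per gene and cell barcode with Cell Ranger (software version 3.1.0 in the file headers) on mm10 with the Chromium 3′ chemistry. Seurat 3.2.1 is named in the submitters' processing notes. From the counts, cells were filtered as the study states (700 to 8000 genes, under 5% mitochondrial) and clustered with scanpy 1.11.5 (Leiden, resolution 2, 3000 variable genes, 50 components, 15 neighbours, no integration, the 10 genes and 61 pathway genes left out). Of 58 clusters, 9 (568 cells) stayed unnamed. A cluster was named with at least 3 raised markers (2-fold), a rule set after the clusters were seen. The 315 likely doublets, 45 of them macrophage-like, were kept. CPM and log2 ratios are of summed counts with exact Poisson and binomial intervals, and genes with at least 100 counts over both libraries were compared. Named genes were the members, pathway genes past 2-fold in macrophage-like cells and the nearest genes by correlation. Members and lists were chosen with earlier results of these data known. The study's integration (Seurat 5.3.0 here) and other settings were alternatives. The ratio and interval code was tested on simulated data. The values of 1 pathway gene are not reported here.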

Additional observations from a re-analysis of the deposited data

Results flagged for a closer look

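Lpl differed in sign between the ages when hyperoxia was compared with air, with each age read from 1 library per condition. Over all cells the log2 ratio was -0.068 (-0.128 to -0.008) at pnd7 and 0.241 (0.197 to 0.286) at pnd60. In interstitial macrophage-like cells it was -0.908 (-1.39 to -0.44) at pnd7, from 59 counts in 19 cells against 116 in 22, and 0.985 (0.59 to 1.39) at pnd60, from 160 counts in 56 cells against 83 in 65. Without the cell with most counts in each library these were -0.78 (-1.35 to -0.23) and 1.02 (0.61 to 1.45). The difference between the ages was itself not tested. In alveolar macrophage-like cells Lpl was above air at both ages. The all-cell values mix classes that the libraries held in unlike numbers. Of the 5133 Lpl counts in air pnd7, 422 came from the mesothelium-like class and 284 from erythroid cells. That class had 189 cells in air pnd7 and 7 in hyperoxia pnd7. The part of cell composition in the all-cell ratios was not tested.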

How the results depend on the processing

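No paired analysis was possible because there were no replicates to pair, nor could any be left out. The median log2 ratio of the 10 genes in macrophage-like cells kept its sign in most settings but moved by more than its counting interval in some. Each median below covers only those of the genes with at least 100 counts over both libraries in that setting. In interstitial cells the median left out Pparg, Abcg1, Cidec and Fabp4, so it describes another set of genes there. For sorted against unsorted hyperoxia (-0.66) it was -0.72 without doublets, -0.37 centred on the median of all genes, -0.75 as mean CPM per cell, -0.79 thinned to 1000 UMIs, -0.27 with Seurat integration, -0.47 in alveolar cells, -0.43 in the cycling cluster, -0.57 without the highest cell of each gene, and 0.17 in interstitial cells. For hyperoxia against air at pnd7 (-0.09) it was -0.29 in interstitial cells, -0.37 in the cycling cluster and 0.10 in cluster 6. For age in air (0.42) it was -0.054 in interstitial cells and -0.65 in the cycling cluster. The cause was not tested. Seurat integration also changed which cells were macrophage-like. The sorted library then had 204 alveolar and 44 interstitial ones, against 412 and 48, and air pnd7 had 140 alveolar ones, against 81. The settings with the cycling cluster, cluster 6, the highest cells and the libraries left out for the class count were chosen after seeing the data. Apoc1 in hyperoxia against air at pnd7 (-1.03) turned to 0.040 as mean CPM per cell and to 0.69 in alveolar cells. Of the 40 ratios of the 10 genes, 26 kept their sign in all settings not limited to alveolar, interstitial, cycling or cluster 6 cells. Of the 5 past 2-fold, 3 stayed past it in all of these (Cidec and Abcg1 in sorted cells, and Cidec with age). The number of genes with their highest level in macrophages was 6, and 5 or 7 in other settings. Counts limit the ratios of Fabp4 (50 counts in alveolar cells of hyperoxia pnd7), Cidec (98) and interstitial Pparg (1 to 28), and no setting measures the spread between mice.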
